A study of Mus musculus with 9 samples.

Results

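The 37 transcripts encoded by the mouse mitochondrial genome were followed in BV-2, a microglial line of the mouse that was made immortal, after priming and restimulation with lipopolysaccharide (LPS). The genes were taken by name, as every row of the deposited count table whose gene name begins with "mt-", which gave 13 messenger RNAs, 2 ribosomal RNAs (rRNA) and 22 transfer RNAs (tRNA) out of 48526 genes. Poly(A) RNA was sequenced in 9 libraries. Unprimed cells (UP, n = 3) received LPS a single time at 100 ng/ml. Ultra-low primed cells (ULP, n = 3) were primed with 1 fg/ml and high primed cells (HP, n = 3) with 100 ng/ml LPS, and both were restimulated with 100 ng/ml. All groups share the final LPS dose, and cells without LPS were not analysed here. Groups follow the sample titles and descriptions. A separate label field for the initial dose names the high dose for ULP and the ultra-low dose for HP, so that telling them apart relies on the titles and descriptions. All libraries come from a single cell line, and the sources used here do not say whether the libraries of a group come from separate cultures, so that p-values measure the spread between these libraries only.

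The mitochondrial genome is a small circle that is transcribed on both strands into long precursors. Most messenger RNAs are cut out of these precursors at the tRNAs that lie between them, and then receive a short poly(A) tail. The proteins they encode are core subunits of the respiratory chain complexes I, III and IV and of the ATP synthase (complex V), whereas all subunits of complex II and the remaining subunits of the others are encoded in the nucleus. In macrophages and microglia, LPS activation is known for a shift from respiration towards glycolysis.

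Libraries held 24189203 to 27802244 assigned counts. Of the 12 microglia and macrophage markers, 10 exceeded 1 RPKM (reads scaled to the gene length in kilobases and to the library total) in every library, while Cx3cr1 and P2ry12, which mark resting microglia of the brain, stayed under 10 counts in each of them. The defining markers of neurons (Rbfox3, Snap25 and Syt1) and of fibroblasts (Col1a1, Col1a2 and Dcn) did not exceed 2 counts, and the 3 astrocyte and 3 oligodendrocyte markers stayed under 1 RPKM. The libraries did not fall cleanly into their groups. On the first principal component of all tested genes other than the mitochondrial ones, which carried 79.1% of the variance, the UP libraries lay at −46.4, −50.1 and −73.0 (replicates 4, 5 and 6), and 2 primed libraries lay on their side, ULP 4 at −39.3 and HP 6 at −20.2. The other primed libraries lay between 44.0 and 75.4. Counts of calls without HP 6 and ULP 4 are therefore given for each comparison, and single values without HP 6 for several genes. These libraries were singled out after seeing the data, and leaving out HP 6 leaves 2 HP libraries. Nuclear-retained RNAs moved along the same axis. Malat1, a long non-coding RNA of the nucleus, was measured at 3.14, 2.83 and 2.17 RPKM in UP, at 4.81, 35.0 and 30.2 RPKM in ULP, and at 45.6, 96.7 and 5.16 RPKM in HP. Neat1, another such RNA, had 0.329 to 0.659 RPKM in UP, 0.762, 3.01 and 3.83 RPKM in ULP, and 7.11, 18.8 and 1.39 RPKM in HP. The part of these RNAs and of the library axis in the results below was not tested.

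Positions on chromosome MT are those of GENCODE and RefSeq, which give the same start and end for all 37 genes in GRCm38 and GRCm39, and the gene lengths behind the deposited RPKM equal them in 37 of 37 cases. Of the 37 genes, 28 lie on the plus strand and 9 on the minus strand (mt-Nd6 and 8 tRNAs). Several overlap. The reading frame of mt-Atp8 (chrMT:7766-7969, plus strand) ends inside that of mt-Atp6, and the sequence is shown because this gene had the largest fold change among the messenger RNAs. Capitals mark the 43 bases shared with mt-Atp6, from the start codon of mt-Atp6 to the stop codon of mt-Atp8, and reads that overlap them can belong to both genes.
mt-Atp8: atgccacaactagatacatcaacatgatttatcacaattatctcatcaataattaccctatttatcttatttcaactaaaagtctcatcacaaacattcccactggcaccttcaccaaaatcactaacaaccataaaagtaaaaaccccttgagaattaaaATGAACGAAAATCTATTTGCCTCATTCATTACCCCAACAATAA

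Next, 3 tRNAs are shown because they had the lowest unadjusted p in HP against UP among the tRNAs of the minus strand (mt-Te and mt-Ts1) or of the plus strand (mt-Tl1). mt-Ts1 (chrMT:6870-6938, minus strand), which carries serine, lies against the end of mt-Co1, and the capitals mark the 3 bases opposite the mt-Co1 stop codon. mt-Te (chrMT:14071-14139, minus strand) carries glutamate and lies next to mt-Nd6. mt-Tl1 (chrMT:2676-2750, plus strand) carries leucine and separates mt-Rnr2 from mt-Nd1.
mt-Ts1: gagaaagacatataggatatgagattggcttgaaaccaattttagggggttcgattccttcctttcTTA
mt-Te: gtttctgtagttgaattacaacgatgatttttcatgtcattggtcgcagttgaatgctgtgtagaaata
mt-Tl1: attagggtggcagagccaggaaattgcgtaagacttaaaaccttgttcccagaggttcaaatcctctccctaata

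In 10 of the 13 messenger RNAs the annotated gene closed with a full stop codon. The 3 others ended in an incomplete codon, of which only a T is encoded and which the poly(A) tail is known to complete. They are shown because the libraries were made from poly(A) RNA, and the last 15 bases are given with the incomplete codon in capitals, for mt-Co3 (chrMT:9376-9390), mt-Nd4 (chrMT:11530-11544) and mt-Cytb (chrMT:15274-15288), all on the plus strand.
mt-Co3: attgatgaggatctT
mt-Nd4: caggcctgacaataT
mt-Cytb: taaaattatatccaT

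The counts of several of these genes cannot be assigned to the mitochondrial genome alone, because the nuclear genome carries copies of it. Of the 16249 windows of 51 bases (the read length) along chromosome MT, 35.6% also occurred without a mismatch in the nuclear genome (GRCm39), and 51.3% with at most 2 mismatches. Every window of 5 messenger RNAs (mt-Co2, mt-Atp8, mt-Atp6, mt-Co3 and mt-Nd4l) had such an exact match, against none of the windows of mt-Nd1, mt-Nd6 and mt-Cytb. The deposited table held 15 nuclear pseudogenes that consist of mitochondrial sequence, 7 of them on chromosome 1, and 12 had over 1000 counts on average. Their counts followed the mitochondrial rows. mt-Co3 had 85038 counts in UP 4 and its copy Gm28437 had 84566, and over the 9 libraries the copy held between 98.9% and 100.2% of the count of mt-Co3. The same range was 97.5% to 98.6% for Gm28661 against mt-Co2 and 104.5% to 108.9% for Gm10925 against mt-Atp6. It was 93.6% to 102.1% for Gm28438 against mt-Nd3 and 96.6% to 101.5% for Gm10222 against mt-Nd4l. The copies of mt-Nd6 and mt-Cytb, whose sequences have diverged, had at most 8 counts. No source used here says how reads with several matches were counted, so that levels of the genes with near-identical copies are uncertain. Values with the copies added are given for mt-Atp6, for shares and for the order of levels. None of the pseudogenes was assigned to mt-Atp8, so that no copy could be added to it.

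**Figure D1:**
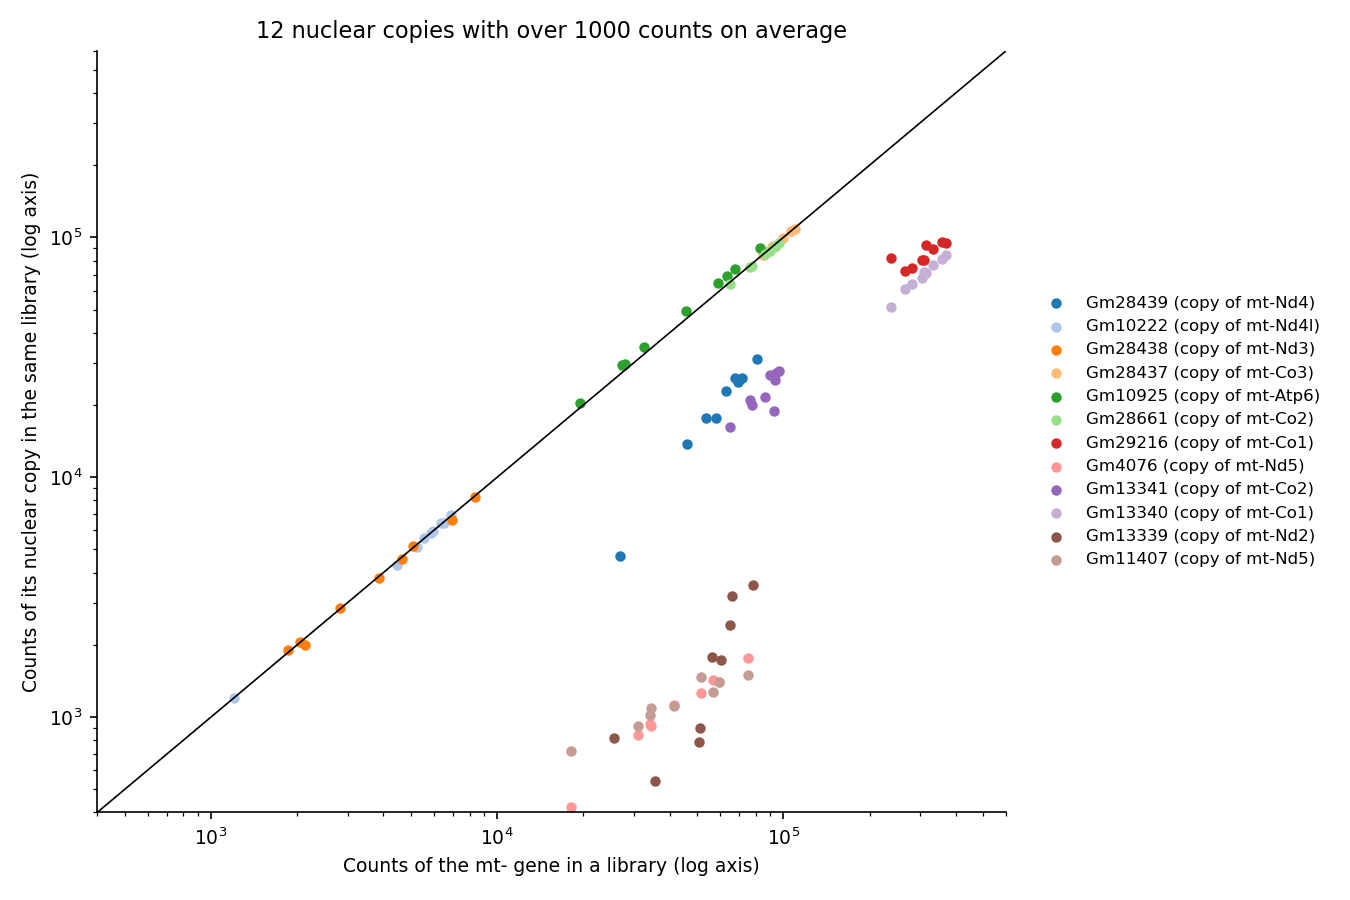
Counts of the 12 nuclear copies with over 1000 counts on average (y axis, log scale) against the counts of the mitochondrial gene they copy (x axis, log scale), 1 point per library and copy. Points on the line have equal counts, as for the copies of mt-Co3, mt-Co2, mt-Nd3 and mt-Nd4l, while the partial or diverged copies of mt-Co1, mt-Nd4, mt-Nd5 and mt-Nd2 and Gm13341, a further copy of mt-Co2, lie below it.

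The share of all assigned counts that fell on the 37 mitochondrial genes was 3.58%, 2.80% and 3.64% in UP (replicates 4, 5 and 6), 4.30%, 4.20% and 4.13% in ULP, and 4.49%, 4.75% and 3.19% in HP. Each ULP library lay above each UP library, whereas HP 6 lay inside the range of UP. Means were 3.34% ± 0.467 in UP, 4.21% ± 0.0871 in ULP and 4.14% ± 0.835 in HP (SD, n = 3). The differences between libraries of a group were far larger than the counting error, which was at most 0.00796 percentage points in either direction (95% Clopper-Pearson interval, counting error only). As the share is a sum over genes chosen with earlier results known, no test was made on it. In bulk RNA, more mitochondrial transcripts per cell and less RNA of other kinds cannot be told apart.

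By complex, the 7 messenger RNAs of complex I held 1.094% ± 0.272 of the library counts in UP, 1.501% ± 0.0300 in ULP and 1.468% ± 0.353 in HP (SD, n = 3). mt-Cytb of complex III held 0.237% ± 0.0329, 0.346% ± 0.0381 and 0.339% ± 0.104. The 3 messenger RNAs of complex IV took the largest share and, relative to that share, differed least between the group means among the complexes, at 1.804% ± 0.160, 1.933% ± 0.190 and 1.875% ± 0.159. Complex V lay at 0.105% ± 0.0267, 0.244% ± 0.0474 and 0.252% ± 0.125, so that the ULP and UP means differed by more than the SD of either, while HP 6, at 0.111%, lay inside the UP range. The rRNAs held 0.0809% ± 0.00658, 0.163% ± 0.0510 and 0.191% ± 0.0991, and the tRNAs 0.0192% ± 0.00194, 0.0196% ± 0.00254 and 0.0191% ± 0.00183. Shares of complex IV and of the tRNAs overlapped among all 3 groups. For complexes I, III and V and for the rRNAs, ULP lay above UP without overlap, and HP overlapped with UP through HP 6.

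**Figure D2:**
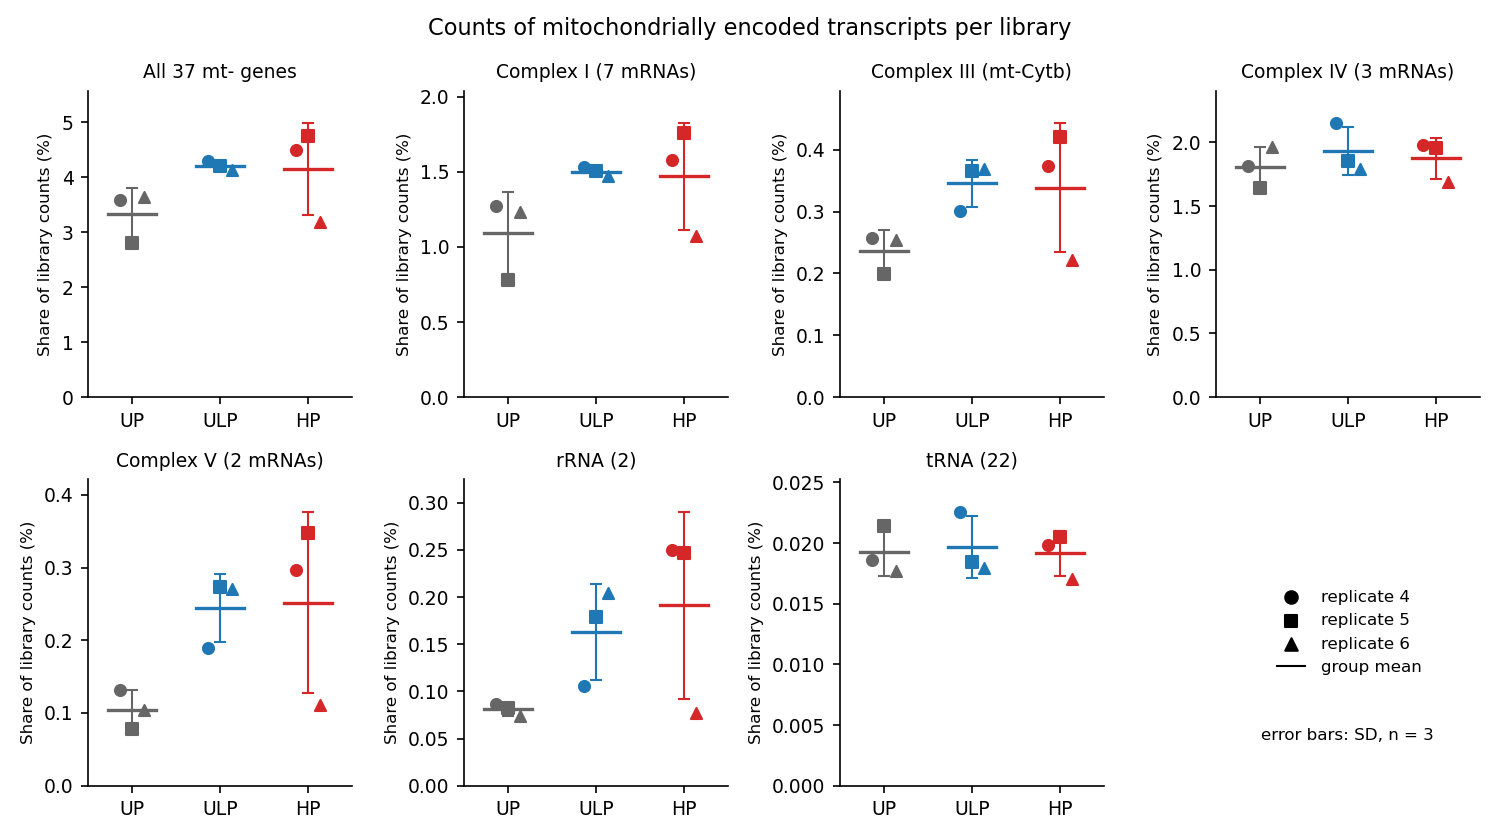
Share of library counts (%, y axis from 0) held by all 37 mitochondrial genes, by the messenger RNAs of each complex, by the rRNAs and by the tRNAs in UP, ULP and HP, with 1 point per library, the group mean as a line and the SD as bars (n = 3). All ULP libraries exceed all UP libraries for the whole (4.13% to 4.30% against 2.80% to 3.64%), and HP 6 lies at 3.19%.

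The comparison of HP with UP asks whether levels after the final LPS dose differ with high-dose priming. Differences present before that dose cannot be told apart from a changed response to it. Of the 37 mitochondrial genes, 28 passed the filter on low counts, namely all messenger RNAs, both rRNAs and 13 tRNAs. The other 9 tRNAs had at most 15 counts in any library. In edgeR's quasi-likelihood test, 0 of these 28 were called at an adjusted p under 0.05, against 0.524% of all 14702 genes tested (13 higher, 0.0884%, and 64 lower, 0.435%). Their smallest adjusted p was 0.0606. At an unadjusted p under 0.05, 9 of the 28 had a higher level in HP (24.3% of all genes did) and 1 had a lower level (16.6% of all genes), which made 10 in either direction (40.9%). The median log2 fold change was 0.44 over the 28 and 0.01 over all genes, and 23 of the 28 had a positive value (50.6% of all genes). That median was 0.28 without HP 5, 0.66 without HP 6, 0.21 without the 3 libraries numbered 5 and 0.75 without those numbered 6. DESeq2 called 8 higher, namely mt-Atp8, mt-Atp6, mt-Nd3, mt-Nd5, mt-Rnr2, mt-Te, mt-Tg and mt-Tl1, and 1 lower, mt-Ts1, where it called 14.6% and 6.13% of the genes it tested. The number of calls changed with the test, the filter and the libraries kept. Without HP 6, edgeR called 14 mitochondrial genes higher and 1 lower (23.9% and 14.3% of all genes). Without HP 4 it called 0 mitochondrial genes and 0 of all genes, as it did without the 3 libraries numbered 6. Without HP 5 it called 0 mitochondrial genes, and 0 higher and 6 lower of 14781 genes. Without ULP 4, it called 4 higher and 0 lower (17.2% and 8.67%), and without both libraries 15 higher and 1 lower (28.1% and 20.4%), a setting chosen after seeing the data. With no filter on low counts it called 5 higher and 0 lower (6.83% and 1.72%). limma called 0 of the 28 on log2(RPKM + 0.1), where it called 0.15% of all genes higher and 0.279% lower, and 0 on log2(RPKM + 1), with 0.0204% and 0.184%.

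The comparison of ULP with UP asks the same for the ultra-low dose. edgeR called 0 of the 28 genes and 0% of all genes, and the smallest adjusted p was 0.169 for both. At an unadjusted p under 0.05, 8 of the 28 had a higher level in ULP (17.3% of all genes) and 1, mt-Ts1, a lower level (9.79% of all genes), which made 9 in either direction (27.1%). DESeq2 called 4 higher (mt-Atp8, mt-Atp6, mt-Rnr2 and mt-Te) and 0 lower, where it called 6.97% and 0.0869% of its genes. After scaling of the libraries, ULP and UP did not overlap for 15 of the 28 genes that were higher in ULP (14.8% of all genes) and for 0 that were lower (13.5%). For HP against UP the same held for 2 (21.9%) and 1 (20.9%). The median log2 fold change was 0.50 against −0.01 over all genes. Without ULP 4, edgeR called mt-Atp8 and mt-Rnr2 higher and 0 lower (13.4% and 5.73% of all genes), and without both ULP 4 and HP 6 it called 11 higher and 1 lower (23.6% and 14.6%). Both comparisons share the UP libraries, so that their values stand side by side below and are not independent of each other.

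HP and ULP were then compared directly, which asks whether the dose of priming matters. Of the 28 genes, 0 were called by edgeR, where 0.17% of all genes were, and 0 had an unadjusted p under 0.05 (3.94% of all genes). DESeq2 called 0 of them, where it called 0.048% of its genes higher and 0.557% lower. The 2 groups overlapped for each of the 28 (for all genes, 4.48% lay apart higher and 5.16% lower). Log2 fold changes of HP over ULP ran from −0.23 to 0.55 with a median of −0.004, and 14 of the 28 were positive. Without HP 6 the median was 0.16 with 20 of the 28 positive, and without both ULP 4 and HP 6 it was 0.16 with 27 positive, all 13 messenger RNAs among them, while without HP 5 it was −0.17 with 4 of 27 positive. edgeR called 0 of the mitochondrial genes in each of these settings. It also called 0 of all genes without HP 6 and without HP 5. Without both ULP 4 and HP 6 it called 0% of all genes higher and 0.0536% lower. This does not show equal levels, as the standard error was 0.69 for mt-Atp8 and 0.14 for mt-Co3. In the simulated data, the test recovered 64% of genes set to a log2 change of 1 and 97% of genes set to 2 for HP against UP, and 47% and 98% for ULP against UP. The simulated counts were drawn independently for each gene and library, without the axis that the real libraries share. Only 100 genes were set to each change, and genes with low counts were not among them. HP against ULP was not simulated, so that these percentages do not give the recovery for this comparison or for the tRNAs with few counts.

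**Figure D3:**
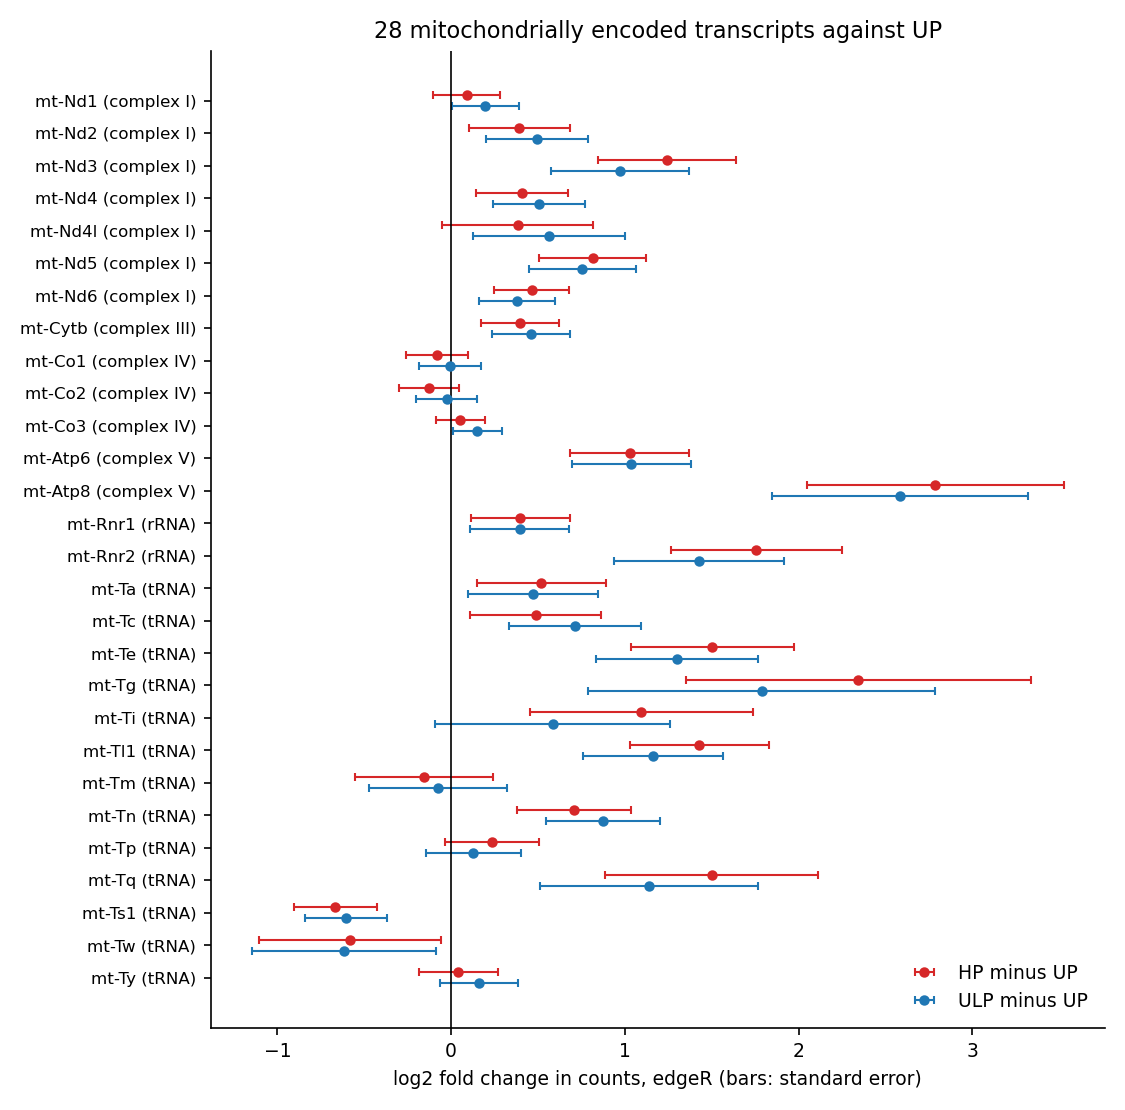
Log2 fold changes of the 28 tested mitochondrial transcripts (x axis, bars are standard errors) in HP minus UP and ULP minus UP, ordered by complex and RNA class. mt-Atp8 lies farthest to the right (2.79 and 2.58), the 3 genes of complex IV lie between −0.13 and 0.15, and mt-Ts1 and mt-Tw lie to the left in both comparisons.

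In complex V, mt-Atp8 had the largest log2 fold changes among the messenger RNAs, while mt-Atp6 stayed below mt-Nd3 of complex I in HP. mt-Atp8 (ENSMUSG00000064356), a small membrane subunit of the ATP synthase, had 306.4, 103.4 and 173.8 RPKM in UP, 755.4, 1714 and 1240 RPKM in ULP, and 1875, 2249 and 223.2 RPKM in HP. All ULP libraries and 2 HP libraries lay above UP, whereas HP 6 lay among the UP libraries. The log2 fold change was 2.79 ± 0.74 (SE, adjusted p = 0.0606, edgeR) in HP and 2.58 ± 0.74 (adjusted p = 0.169) in ULP, and 3.30 ± 0.43 (adjusted p = 0.0129) in HP without HP 6. Without HP 6, 23.9% of all genes were called higher and 14.3% lower, and this library was singled out after seeing the data. Adjusted p-values without it, here and below, therefore do not single out these genes. mt-Atp6 (ENSMUSG00000064357), the subunit that forms the proton path, had 1841, 1117 and 1474 RPKM in UP, 2561, 3499 and 3598 RPKM in ULP, and 3801, 4435 and 1563 RPKM in HP. Again ULP lay above UP without overlap and HP 6 lay inside UP. Its log2 fold changes were 1.03 ± 0.34 (adjusted p = 0.0692) and 1.04 ± 0.34 (adjusted p = 0.169), and 1.05 and 1.06 with the nuclear copy added. Without HP 6 the value in HP was 1.37 ± 0.21 (adjusted p = 0.0129). The genes mt-Atp8, mt-Atp6 and mt-Co3 follow each other on the same strand, but their counts did not keep a fixed ratio. There were 38.4, 21.5 and 31.5 counts of mt-Atp6 for every 100 counts of mt-Co3 in UP and 41.5, 63.8 and 64.2 in ULP. The HP libraries had 63.9, 78.0 and 31.7.

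Complex I, which takes electrons from NADH, was uneven. mt-Nd3 (ENSMUSG00000064360) had 311.2, 228.7 and 191.9 RPKM in UP, 425.4, 548.3 and 549.9 RPKM in ULP, and 763.5, 876.4 and 240.1 RPKM in HP, which gave log2 fold changes of 1.24 ± 0.40 (SE, adjusted p = 0.0664, edgeR) in HP and 0.97 ± 0.40 (adjusted p = 0.176) in ULP. mt-Nd5 (ENSMUSG00000064367), a large subunit of the proton-pumping membrane arm, had 720.7, 388.1 and 681.1 RPKM in UP, 869.7, 1166 and 1164 RPKM in ULP, and 1246, 1499 and 665.7 RPKM in HP, with log2 fold changes of 0.81 ± 0.31 (adjusted p = 0.0861) and 0.75 ± 0.31 (adjusted p = 0.176). In both genes the 3 ULP libraries lay above UP and HP 6 did not. Without HP 6 the values in HP were 1.64 ± 0.20 for mt-Nd3 (adjusted p = 0.0129) and 1.09 ± 0.25 for mt-Nd5 (adjusted p = 0.0151). mt-Nd6 (ENSMUSG00000064368), the only messenger RNA of the minus strand, known in human cells for lacking a regular poly(A) tail, had 905.0, 945.4 and 843.3 RPKM in UP, 1098, 1202 and 1428 RPKM in ULP, and 1532, 1640 and 873.0 RPKM in HP. Its fold changes were smaller, at 0.46 ± 0.22 and 0.38 ± 0.22 on the log2 scale, and edgeR called it in HP only where HP 6 was left out, alone or with ULP 4 (0.71 ± 0.14, adjusted p = 0.0129).

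For mt-Nd1, mt-Nd2, mt-Nd4 and mt-Nd4l, UP 5 was the lowest library. On the RPKM scale it was also the lowest for mt-Nd5, mt-Atp8, mt-Atp6, mt-Cytb and mt-Co1. Without UP 5 the median log2 fold change over the 13 messenger RNAs went from 0.40 to 0.16 in HP. In ULP it went from 0.49 to 0.26. mt-Nd4l (ENSMUSG00000065947) had 676.8, 157.4 and 724.7 RPKM in UP, 842.3, 804.5 and 773.5 RPKM in ULP, and 755.3, 848.6 and 587.2 RPKM in HP. UP 5 stood far below the 8 other libraries. The log2 fold changes of mt-Nd4l, 0.38 in HP and 0.56 in ULP, became −0.05 and 0.14 without UP 5. mt-Nd4 (ENSMUSG00000064363) had 1497, 760.1 and 1513 RPKM in UP against 1841 to 1925 RPKM in ULP and 1304 to 2132 RPKM in HP, and its log2 fold changes of 0.41 and 0.51 became 0.16 and 0.26. The overlapping reading frames of mt-Nd4l and mt-Nd4 share 7 bases, and UP 5 had 4.46 counts of mt-Nd4l per 100 counts of mt-Nd4, where the other libraries had 8.19 to 10.3. mt-Nd2 (ENSMUSG00000064345) had 1885, 957.9 and 1753 RPKM in UP, 2232 to 2351 RPKM in ULP and 1343 to 2753 RPKM in HP, and its log2 fold changes of 0.39 and 0.49 became 0.15 and 0.26. On the RPKM scale ULP lay above UP without overlap for mt-Nd2, mt-Nd4 and mt-Nd4l. After scaling in the fit, ULP and UP overlapped for mt-Nd4l, but not for mt-Nd2 and mt-Nd4. mt-Nd1 (ENSMUSG00000064341), the most abundant complex I transcript, had 6916, 4645 and 6710 RPKM in UP, 6775 to 8123 RPKM in ULP and 5868 to 7947 RPKM in HP, with log2 fold changes of 0.09 ± 0.19 and 0.20 ± 0.19, and its groups overlapped. Without UP 5 they came to −0.06 and 0.05.

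mt-Cytb (ENSMUSG00000064370) encodes cytochrome b, the mitochondrially encoded subunit of complex III, and has no exact nuclear copy of read length. It had 2252, 1740 and 2224 RPKM in UP, 2636, 3201 and 3224 RPKM in ULP, and 3274, 3672 and 1936 RPKM in HP. ULP lay above UP without overlap, and HP 6 lay within UP. The log2 fold changes were 0.40 ± 0.22 (SE, adjusted p = 0.203, edgeR) in HP and 0.46 ± 0.22 (adjusted p = 0.204) in ULP, and 0.64 ± 0.16 (adjusted p = 0.0193) in HP without HP 6.

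Complex IV, the terminal oxidase, had the smallest log2 fold changes among the complexes by median. mt-Co1 (ENSMUSG00000064351), its catalytic subunit, had 7686, 5987 and 8614 RPKM in UP, 8885, 7407 and 7094 RPKM in ULP, and 7831, 7890 and 7136 RPKM in HP. These ranges overlapped, and the log2 fold changes were −0.08 ± 0.18 (SE) in HP and −0.01 ± 0.18 in ULP. mt-Co2 (ENSMUSG00000064354), which receives electrons from cytochrome c, had 4357, 5272 and 4547 RPKM in UP, 5206, 4938 and 4632 RPKM in ULP, and 5269, 5159 and 3711 RPKM in HP. Its log2 fold changes were −0.13 ± 0.17 and −0.03 ± 0.17. mt-Co3 (ENSMUSG00000064358), the remaining core subunit, had 4166, 4520 and 4059 RPKM in UP, 5366, 4760 and 4865 RPKM in ULP, and 5170, 4938 and 4279 RPKM in HP, with log2 fold changes of 0.05 ± 0.14 and 0.15 ± 0.14. The signs of mt-Co1 and mt-Co2 are not firm, because with an offset for gene length mt-Co1 came to 0.02 and 0.11, and mt-Co2 to −0.01 and 0.12.

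**Figure D4:**
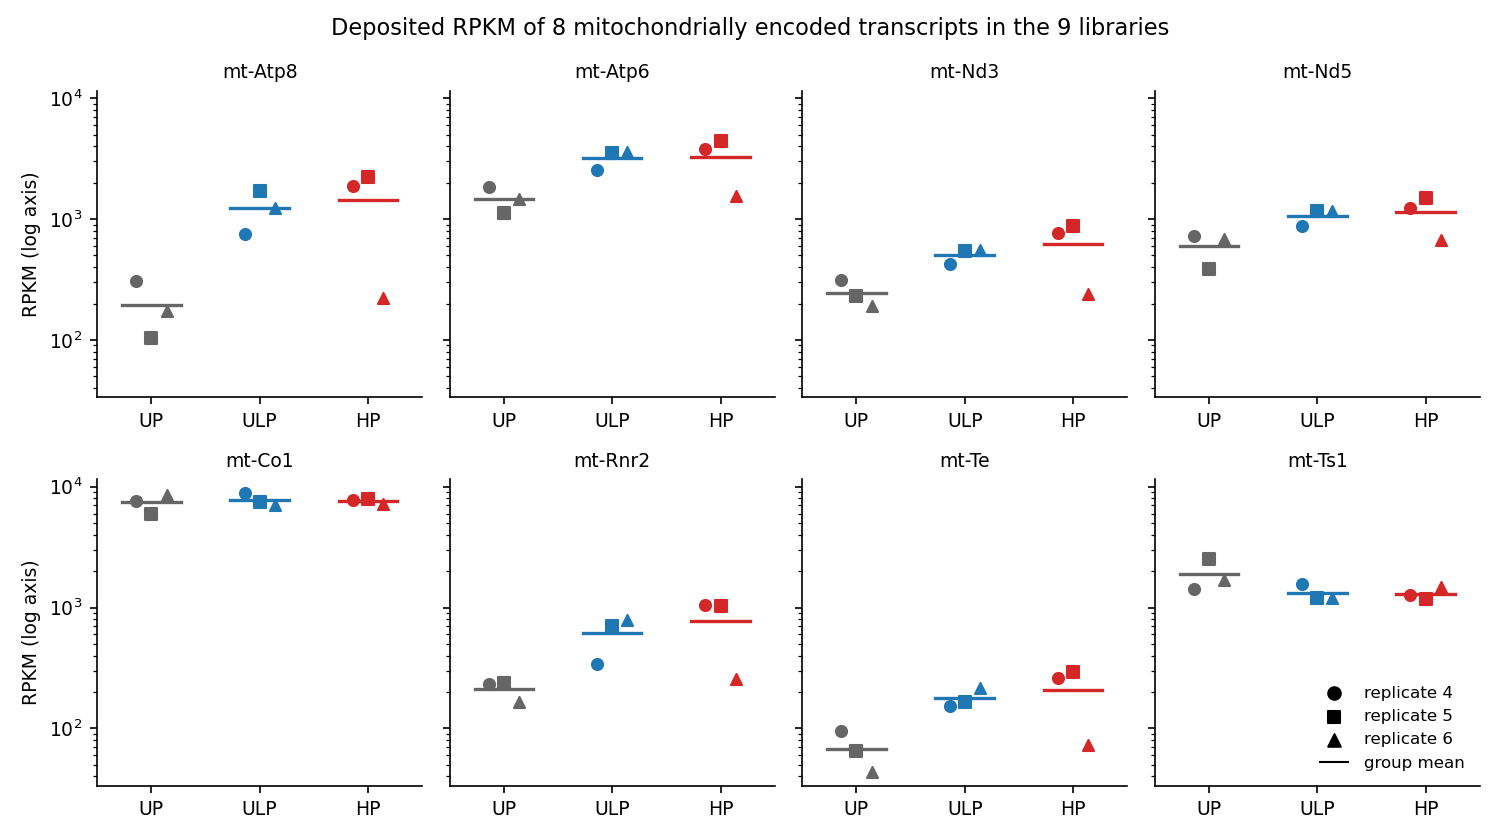
Deposited RPKM (y axis, log scale) of 8 mitochondrial transcripts in the 9 libraries, with 1 point per library and the group mean as a line. HP 6 (triangle) lies with the UP libraries for mt-Atp8, mt-Atp6, mt-Nd3, mt-Nd5 and mt-Te and just above them for mt-Rnr2, mt-Co1 spans 5987 to 8885 RPKM over all libraries, and UP 5 is highest for mt-Ts1.

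As a share of the counts of the 13 messenger RNAs, mt-Atp8 took 0.119% ± 0.0536 in UP, 0.631% ± 0.253 in ULP and 0.692% ± 0.476 in HP (SD, n = 3). mt-Co1 took 35.3% ± 1.90, 29.9% ± 2.65 and 30.5% ± 4.49, and mt-Nd1 17.9% ± 1.30, 17.5% ± 1.04 and 17.2% ± 0.862. With the counts of the nuclear copies added, mean shares in UP, ULP and HP were 0.0819%, 0.436% and 0.478% for mt-Atp8. They were 36.5%, 30.8% and 31.6% for mt-Co1, and 12.2%, 12.1% and 11.9% for mt-Nd1. The make-up of the mitochondrial messenger RNA thus held more mt-Atp8 in the ULP libraries and 2 HP libraries, with mt-Nd1 nearly level. Over all libraries and per length, mt-Co1 was the highest of the 37 genes, with a mean of 7615 RPKM, followed by mt-Nd1 with 6827, mt-Co2 with 4788, mt-Co3 with 4680, mt-Cytb with 2684 and mt-Atp6 with 2654 RPKM. mt-Co1 and mt-Nd1 overlapped in range over the libraries, as did mt-Co2 with mt-Co3 and mt-Cytb with mt-Atp6. With the counts of the nuclear copies added, the order by RPKM became mt-Co1 (11446), mt-Co2 (10753), mt-Co3 (9343), mt-Nd1 (6827), mt-Atp6 (5524) and mt-Cytb (2684). The share of library counts became 4.84% ± 0.536 in UP, 6.01% ± 0.151 in ULP and 5.91% ± 1.16 in HP with the copies.

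The rRNAs, which form the 2 subunits of the mitochondrial ribosome, are measured here only as far as they were carried through the selection for poly(A) RNA. mt-Rnr2 (ENSMUSG00000064339, the 16S rRNA) had 233.7, 237.8 and 165.2 RPKM in UP, 339.0, 702.0 and 792.9 RPKM in ULP, and 1047, 1038 and 258.4 RPKM in HP. All 6 primed libraries lay above UP on this scale, HP 6 by the least. After scaling in the fit, HP 6 overlapped with UP. The log2 fold change was 1.76 ± 0.49 (SE, adjusted p = 0.0606, edgeR) in HP and 1.43 ± 0.49 (adjusted p = 0.169) in ULP, and 2.18 ± 0.31 (adjusted p = 0.0129) in HP without HP 6. mt-Rnr1 (ENSMUSG00000064337, the 12S rRNA) had 523.5, 463.7 and 500.4 RPKM in UP, 548.4, 707.8 and 827.3 RPKM in ULP, and 883.7, 868.7 and 377.1 RPKM in HP, with log2 fold changes of 0.40 ± 0.29 and 0.40 ± 0.29. Both rRNAs lie on the same strand with only mt-Tv between them, yet mt-Rnr2 had 74.0, 85.0 and 54.7 counts per 100 counts of mt-Rnr1 in UP and 102.4, 164.3 and 158.8 in ULP. The HP libraries had 196.2, 197.9 and 113.5. This ratio was above UP in each primed library.

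The 22 tRNAs were unevenly counted. Transfer RNAs are short and carry no poly(A) tail, and a 51-base read can cover most of one. Every window of mt-Ts1, mt-Tn, mt-Ty, mt-Te and mt-Tg also occurs without a mismatch in the nuclear genome, so that reads of nuclear sequence cannot be told apart there. The 5 with over 100 counts on average (mt-Ts1, mt-Tc, mt-Tn, mt-Ty and mt-Te) lie on the minus strand and held 95.7% of the 45567 tRNA counts. The highest of the 14 tRNAs on the plus strand, mt-Tg, reached 57.9 counts on average, and 3 (mt-Tf, mt-Td and mt-Tr) had a single count in a single library, where a count of 0 allows up to 3 counts (0.108 to 0.124 RPM, counts scaled to the library total). The kit marks strand, but no source used here says whether counting used it, so that reads of these genes and of the precursor on the other strand cannot be told apart.

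mt-Ts1 (ENSMUSG00000064352, serine) was the most counted tRNA and the only mitochondrial transcript lower than UP at an unadjusted p under 0.05 in both comparisons. It had 2577, 4491 and 3272 counts in UP, 2828, 2215 and 1989 counts in ULP, and 2272, 2226 and 2607 counts in HP. UP 5 was the highest, and the log2 fold changes of −0.67 ± 0.24 (SE, adjusted p = 0.0765, edgeR) in HP and −0.61 ± 0.24 (adjusted p = 0.172) in ULP became −0.37 and −0.31 without UP 5. mt-Te (ENSMUSG00000064369, glutamate) had 171, 114 and 84 counts in UP, 274, 303 and 360 counts in ULP, and 471, 551 and 129 counts in HP. Its log2 fold changes were 1.504 ± 0.468 (adjusted p = 0.0642) and 1.302 ± 0.467 (adjusted p = 0.169), and 1.92 ± 0.28 (adjusted p = 0.0129) in HP without HP 6. ULP lay above UP throughout, and HP 6 lay inside UP.

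Among the remaining minus-strand tRNAs, mt-Tc (cysteine) had 1140, 325 and 744 counts in UP, 1053 to 1516 in ULP and 784 to 1325 in HP. mt-Tn (asparagine) had 406, 170 and 302 counts in UP, 415 to 648 in ULP and 315 to 623 in HP. For both, UP 5 was the lowest library. mt-Ty (tyrosine) had 245 to 417 counts in UP, 331 to 511 in ULP and 372 to 397 in HP, mt-Ta (alanine) 24 to 29, 22 to 56 and 33 to 59, and mt-Tp (proline) 12 to 15, 11 to 17 and 16 to 18. mt-Tq (glutamine) had 5 to 10 counts in UP, 18 to 19 in ULP and 5 to 38 in HP. On the plus strand, mt-Tl1 (leucine) had 20, 8 and 17 counts in UP and 25, 49 and 30 in ULP. The HP libraries had 42, 63 and 27. It did not overlap between UP and either primed group and had log2 fold changes of 1.43 ± 0.40 (SE, adjusted p = 0.0606, edgeR) and 1.16 ± 0.40 (adjusted p = 0.169), on few counts. mt-Tg (glycine) had 9 to 23 counts in UP, 29 to 122 in ULP and 11 to 232 in HP, and its log2 fold change of 2.34 ± 0.99 in HP became 0.62 ± 0.79 without HP 5. mt-Tm (methionine) had 11 to 26, 13 to 24 and 15 to 19 counts, and mt-Tw (tryptophan) 8 to 20, 8 to 15 and 6 to 21, with full overlap of the groups.

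**Figure D5:**
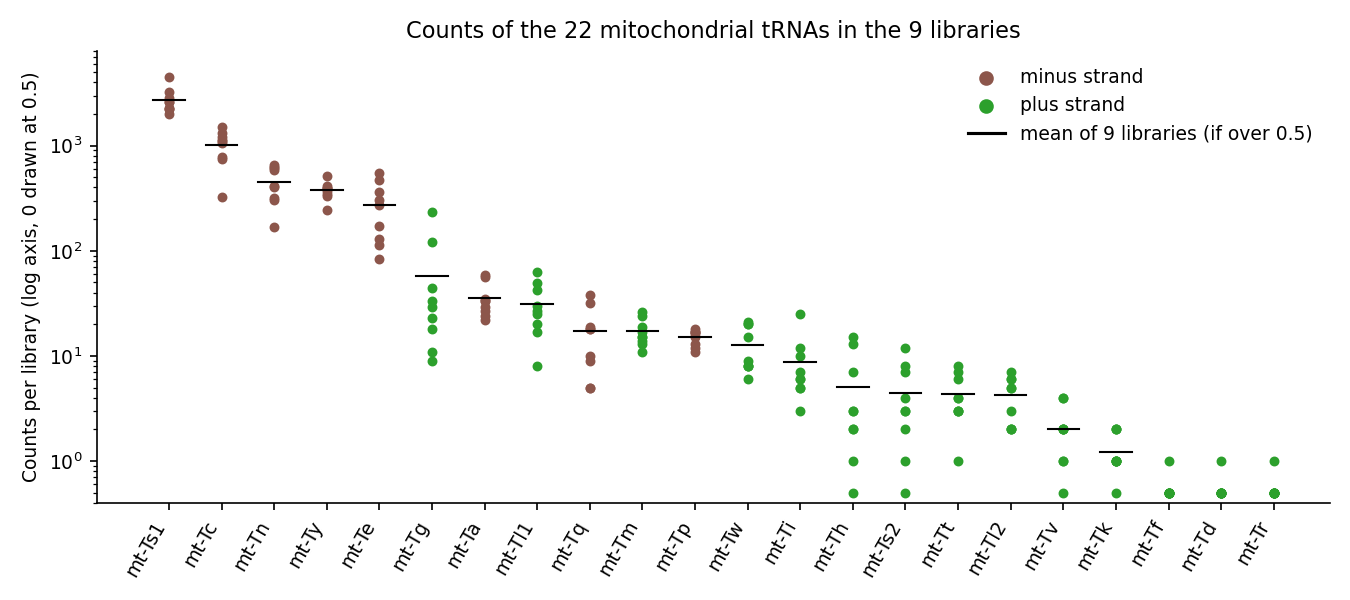
Counts of the 22 mitochondrial tRNAs in the 9 libraries (y axis, log scale, with 0 drawn at 0.5), ordered by their mean and coloured by strand. The 5 tRNAs with means over 100 counts are all on the minus strand, and the highest plus-strand tRNA, mt-Tg, has a mean of 57.9.

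Nuclear genes of the same pathways were set beside these values. The nuclear-encoded subunits of complexes I to V numbered 75. Of these, edgeR called 0 in HP against UP and 0 in ULP against UP (0.524% and 0% of all genes). At an unadjusted p under 0.05, 42 were lower and 1 higher in HP (16.6% and 24.3% of all genes). In ULP, 34 were lower and 0 higher (9.79% and 17.3% of all genes). The median log2 fold change of these subunits was −0.45 in HP and −0.39 in ULP, and 62 and 66 of the 75 had a negative value. Of all genes, 50.6% and 49.3% had a positive value. The 13 mitochondrial messenger RNAs had medians of 0.40 and 0.49, with 11 positive in each. The signs of these 4 medians held in each alternative run. The median of the nuclear subunits ranged from −0.56 to −0.18 in HP and from −0.60 to −0.17 in ULP, and was −0.27 and −0.24 without UP 5. That of the mitochondrial messenger RNAs ranged from 0.10 to 0.77 in HP and from 0.26 to 0.65 in ULP, and was 0.16 and 0.26 without UP 5. There were 2.05, 1.35 and 2.03 mitochondrial messenger RNA counts per count of a nuclear subunit in UP and 2.51, 2.78 and 2.77 in ULP. The HP libraries had 2.82, 3.28 and 1.86. All ULP libraries lay above UP, and HP 6 lay within it.

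Single subunits are given for each complex. Ndufa7 of complex I had 49.4, 80.0 and 54.1 RPKM in UP, 53.1, 42.9 and 38.6 RPKM in ULP, and 42.07, 37.03 and 46.78 RPKM in HP (log2 fold change −0.67 ± 0.22 in HP, adjusted p = 0.0689, edgeR). Uqcrc1, a core subunit of complex III, had 60.4, 60.2 and 66.9 RPKM in UP, 57.2, 42.5 and 42.1 RPKM in ULP, and 42.3, 35.7 and 56.0 RPKM in HP (log2 fold change −0.60 ± 0.20, adjusted p = 0.068). In Uqcrc1 all primed libraries lay below UP, with ULP 4 and HP 6 nearest to it. Atp5d, a subunit of the ATP synthase stalk, had 111.8, 152.9 and 131.8 RPKM in UP, 101.9, 78.9 and 78.6 RPKM in ULP, and 85.9, 61.2 and 116.2 RPKM in HP, with log2 fold changes of −0.72 ± 0.25 (SE, adjusted p = 0.0722, edgeR) and −0.70 ± 0.25 (adjusted p = 0.169). Sdhb, the iron-sulfur subunit of complex II, had 73.8, 96.1 and 81.5 RPKM in UP, 76.7, 55.3 and 58.7 RPKM in ULP, and 55.1, 46.7 and 68.9 RPKM in HP, with log2 fold changes of −0.68 ± 0.20 (adjusted p = 0.0621) and −0.48 ± 0.20 (adjusted p = 0.178). Cox6c, a small subunit of complex IV, was among the subunits with a positive log2 fold change, which were 13 of the 75 in HP and 9 in ULP. It had 16.2, 24.5 and 11.4 RPKM in UP, 16.3, 43.8 and 50.4 RPKM in ULP, and 62.7, 72.1 and 18.3 RPKM in HP (log2 fold change 1.43 ± 0.55 in HP, adjusted p = 0.0889). Its high libraries were the same 4 that lay on the far side of the principal component.

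Of 16 genes for mitochondrial transcription and maintenance of mitochondrial DNA, edgeR called 0 in HP and 0 in ULP (0.524% and 0% of all genes). At an unadjusted p under 0.05, 8 were higher in HP and 4 in ULP (24.3% and 17.3% of all genes), and 0 were lower (16.6% and 9.79%). Their median log2 fold changes were 0.32 and 0.24. Mterf3, which represses mitochondrial transcription in mice, had 1.11, 1.41 and 0.727 RPKM in UP, 1.22, 3.24 and 4.51 RPKM in ULP, and 4.49, 5.69 and 1.67 RPKM in HP (log2 fold change 1.74 ± 0.53 in HP, adjusted p = 0.0637, edgeR). Of 29 genes for processing, modification and decay of mitochondrial RNA, edgeR called 0 in HP and 0 in ULP (0.524% and 0% of all genes). At an unadjusted p under 0.05, 5 were higher and 3 lower in HP (24.3% and 16.6% of all genes), and 4 were higher and 1 lower in ULP (17.3% and 9.79%). Their medians were −0.04 and −0.12. Trmt10c, a subunit of the enzyme that cuts the 5′ ends of mitochondrial tRNAs, had 2.88, 3.84 and 1.99 RPKM in UP, 3.54, 13.3 and 14.4 RPKM in ULP, and 17.42, 20.01 and 4.796 RPKM in HP (log2 fold change 2.15 ± 0.61 in HP, adjusted p = 0.0606). In Mterf3 and Trmt10c alike, ULP 4 and HP 6 lay near the UP libraries.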

How the data were processed

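Poly(A) RNA of BV-2 cells was measured in 9 libraries, sequenced as single reads of 51 bases after stranded preparation. The authors aligned reads with TopHat2 2.1.0 and counted them per gene with featureCounts 1.5.0 (base calls by bcl2fastq 1.8.4, build GRCm38 per the submitters' processing notes, another one in the supplement). The strand setting and the treatment of reads with several matches are not given. The deposited counts are whole numbers, not normalized. The deposited RPM and RPKM were scaled by the authors to library totals and, for RPKM, to gene length.

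Counts of 14702 genes that passed filterByExpr were scaled by TMM and fitted over all 9 libraries with edgeR 4.0.16 (R 4.3.3, quasi-likelihood test, group term, Benjamini-Hochberg adjustment over all genes, calls under 0.05). Medians, shares and ratios were given without a test. Groups were called non-overlapping on CPM scaled by TMM. Principal components used log2 CPM with a prior count of 2. A nuclear gene was taken as a copy when at least 50% of its model consisted of mitochondrial matches, and was given to the mitochondrial gene with which it shared most 25-base words. The fit was tested on simulated data.

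Named were all messenger RNAs, both rRNAs, tRNAs with a mean of at least 10 counts and, in each nuclear list without a called gene, the gene with the largest fold change among those with a mean CPM of at least 5. The genes, lists and markers were chosen with earlier results of these data known. Results were recomputed with a block for the replicate number, with an offset for gene length (loess, span 0.3), both together, RLE size factors, scaling without mitochondrial genes, no filter, DESeq2 1.42.0, limma 3.58.1 on log2(RPKM + 0.1) and log2(RPKM + 1), only the 6 libraries compared, each library or replicate number left out, ULP 4 and HP 6 left out together, and nuclear copies added. The sequences are from GENCODE vM39.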

Additional observations from a re-analysis of the deposited data

How the results depend on the processing

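For HP against UP, where edgeR called 0 of the 28 mitochondrial genes, DESeq2 called 8 higher and 1 lower, and the fit without a filter on low counts called 5 higher. Without HP 6 there were 14 higher and 1 lower, without ULP 4 there were 4 higher, and without both 15 higher and 1 lower. Leaving out each library or replicate number in turn thus gave 0 to 14 higher and 0 to 1 lower. For ULP against UP, DESeq2 called 4 higher and leaving out ULP 4 gave 2, so that leaving out single libraries gave 0 to 2, while leaving out both libraries gave 11 higher and 1 lower. The cause was not tested. The edgeR fits with an offset for gene length, RLE factors, scaling without mitochondrial genes, only 6 libraries, nuclear copies added or a replicate block called 0 mitochondrial genes in each comparison, as did limma on RPKM. In HP against UP, the fit on only the 6 libraries called 1218 higher and 293 lower of 14256 genes. The fit with the length offset called 19 and 95 of 14702, and RLE factors gave 13 and 63. Scaling without mitochondrial genes and adding nuclear copies each gave 13 and 64, and the replicate block called 0 of all genes. In ULP against UP each of these settings called 0 of all genes. In HP against ULP they called at most 8 higher and 43 lower. Over all alternatives, the sign of at most 5 of the 28 genes changed in HP against UP and of at most 3 in ULP against UP, none of which was called. limma on log2(RPKM + 0.1) moved the median of all genes in HP against UP to 0.13. Shares of library counts with nuclear copies were 4.84% (UP), 6.01% (ULP) and 5.91% (HP), and ULP was 4.39% relative to the counts of other genes.

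The replicate numbers are shared between groups, but no source says that they mark a common culture or day. Of 9 pairs with the same number, 4 had a correlation of deviations above 0.1 (−0.84 to 0.68), and 1 of 9 libraries correlated best with its own number. ULP 4 and HP 6 shared their deviations, with a correlation of 0.90. With 3 libraries per group, these correlations cannot decide whether a number marks a common culture or day. With the replicate block, 0 mitochondrial genes and 0% of all genes were called in each comparison.

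Precision was limited by 3 libraries per group, by libraries that differed far beyond counting error, and, for 9 tRNAs, by at most 15 counts.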
